A study of Mus musculus with 3 samples.

Results

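In single-cell data from the mouse dentate gyrus, 626 of 8105 cell barcodes carried at least 30% of their unique molecular identifiers (UMIs, counts of single RNA molecules) in mitochondrially encoded genes and held 0 UMIs of both Camk2a and Ddn. These 626 are called the selected barcodes here. Camk2a encodes a subunit of the calcium/calmodulin-dependent kinase of synapses, Ddn encodes dendrin, and the mRNAs of both are known to be carried into dendrites. The mitochondrial share and the levels of these 2 genes made up the rule, and since the barcodes were chosen by these measured values, they are given as a description without a test. The dentate gyrus was dissected, digested with trypsin, triturated and passed through a strainer and a sucrose step, and no sorting of cells was described. The 3 libraries were 1 per group: mice at 8 weeks in standard housing (control), littermates at 8 weeks given a wheel to run in during 12 days (runner), and non-running mice at 14 months (aged). All 3 carry the strain label hGFAP-eGFP, a reporter for the astrocyte gene GFAP, while the text on the series describes wild-type animals and mentions this reporter only for those at 14 months. How many mice went into each library is not stated in the labels, and 1 library per group allowed no test between the groups.

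Neurons and glia keep a part of their mRNA away from the cell body, in axons, dendrites and the fine processes of astrocytes and oligodendrocytes, where it is translated on the spot. Mbp mRNA in oligodendrocyte processes and Slc1a2 mRNA in astrocyte processes are textbook cases. Malat1 and Neat1 are long noncoding RNAs that stay in the nucleus, and the immediate early genes Fos and Jun are transcribed within minutes of a stimulus or of tissue handling. Cytosolic ribosomal protein mRNAs and mRNAs of the nuclear-encoded respiratory chain are also abundant in processes and at mitochondria. Levels are therefore given below for RNAs of axons, dendrites, glial processes and nuclei, each as counts per 1000000 non-mitochondrial UMIs (CPM).

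The selected barcodes numbered 132 of 2356 in control (5.60%, exact 95% interval 4.71 to 6.61), 287 of 3328 in runner (8.62%, 7.69 to 9.63) and 207 of 2421 in aged (8.55%, 7.47 to 9.74). The share was 3.02 percentage points higher in runner than in control (Newcombe 95% interval 1.67 to 4.34) and 2.95 points higher in aged (1.5 to 4.41). Among the barcodes at or above 30% mitochondrial UMIs alone, they were 9.56%, 13.6% and 11.4%. On that base the runner difference was 3.99 points (1.82 to 6.09) and the aged difference 1.85 points (-0.317 to 3.96). These intervals, like all others below, cover counting error only. They take barcodes as the units, and with 1 library per group they are no test of running or age.

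The comparison sets came from the same 3 libraries. The low-mitochondrial barcodes had under 10% mitochondrial UMIs and at least 200 genes, and there were 514 in control, 969 in runner and 393 in aged. The remaining mitochondria-rich barcodes, those with at least 1 UMI of Camk2a or Ddn, numbered 1249, 1831 and 1608. The selected barcodes were shallow, with medians of 413, 323 and 368 non-mitochondrial UMIs and 285.5, 239 and 254 genes, while the low-mitochondrial barcodes had medians of 1370, 1695 and 1353 UMIs. The other mitochondria-rich barcodes were as shallow as the selected ones, with medians of 396, 359 and 397. In a selected barcode, the median share of mitochondrial genes was 43.7%, 48.6% and 48.4%. Few barcodes lay near the limit, with 6, 7 and 3 between 30% and 32% and 4, 5 and 4 between 28% and 30%. Between 8 and 10 barcode sequences were shared by each pair of libraries, and no sequence was a selected barcode in both of its libraries. No doublet caller was run.

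In barcodes this shallow, a count of 0 for Camk2a and Ddn depends on depth. Over all mitochondria-rich barcodes the 2 genes together stood at 8965, 9771 and 7770 CPM, which at the median depth of those barcodes corresponds to 3.56, 3.46 and 3.06 UMIs. With Poisson counting at these rates and each barcode's depth, 45.5, 91.6 and 98.6 mitochondria-rich barcodes would hold 0 UMIs. The selected barcodes numbered 132, 287 and 207, and which of them hold 0 through depth was not tested. The same 2 genes stood at 686, 336 and 470 CPM in the low-mitochondrial barcodes.

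Against the low-mitochondrial barcodes, lack of dendritic mRNA, the working name, held for the 2 defining genes and not for most other dendritic RNAs. Against the other mitochondria-rich barcodes, the dendrite genes had a median log2 fold change of -0.73 and Map2 was lower, as given further below. Map2, the microtubule-associated protein of dendrites, stood at 1110, 1045 and 1026 CPM in the selected control, runner and aged barcodes and at 138, 213 and 146 CPM in the low-mitochondrial barcodes. The 3 selected values lie close together and all above the 3 others, and the log2 fold change was 2.85 ± 0.21 (SE, 3 libraries, adjusted p = 4.05e-39). Here and below, log2 fold changes and adjusted p-values come from edgeR's quasi-likelihood test on UMIs summed per library and barcode set, with the library as a block and Benjamini-Hochberg adjustment over all 10128 genes tested. With 1 library per condition, the 3 libraries serve as the replicates of this within-library comparison, so the test asks for a difference shared by control, runner and aged. Of those genes 2522 (24.9%) differed, 908 (8.97%) being higher and 1614 (15.9%) lower, in the selected barcodes at an adjusted p under 0.05, and the median of all genes was -0.82. With DESeq2 the numbers were 731 higher and 846 lower, and with scaling to total UMIs they were 813 and 2195.

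The low-mitochondrial barcodes held another mix of cells, and lineages were compared after every barcode was thinned to 200 non-mitochondrial UMIs, which left out 0, 8 and 0 selected barcodes. At least 2 of 8 microglial markers were then found in 5.30%, 3.23% and 7.73% of the selected barcodes and in 45.7%, 37.3% and 49.9% of the low-mitochondrial ones. At least 2 of 8 astrocyte markers were found in 22%, 24% and 21.3% of the selected barcodes and in 9.34%, 10.4% and 12.5% of the low-mitochondrial ones. Without thinning, the astrocyte shares of the selected barcodes were 47.0%, 38.7% and 42.0%. With thinning to 200 UMIs, neuron and oligodendrocyte shares of the selected barcodes were small, between 1.43% and 1.93% in every library.

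Among single lineage markers, all 8 of the microglial list were lower, among them C1qa, a complement component, at 468, 332 and 501 CPM against 3454, 2844 and 4073, and Cx3cr1, the fractalkine receptor, at 52.0, 68.3 and 119 against 1085, 867 and 1871. All 8 oligodendrocyte markers were lower as well. Of 8 astrocyte markers, 5 were higher and none lower, led by Aldoc, an aldolase of astrocytes (2584, 2616 and 2148 CPM against 714, 700 and 664, log2 1.99 ± 0.19, adjusted p = 7.82e-23). Of 8 neuron markers, the vesicle fusion protein Snap25 and the calcium sensor Vsnl1 were higher, as was Olfm1, which did not pass with DESeq2, and the AMPA receptor subunit Gria2 was lower. Of the 6 immature neuron markers tested, 5 were lower, with Dcx and Cd24a at 0 UMIs in all 3 libraries, which puts Dcx at least 6.65-fold and Cd24a at least 9.30-fold below the low-mitochondrial barcodes (floor of 3 UMIs over the 3 libraries). Neither passed when the runner library was left out (log2 -6.84 for Dcx and -6.64 for Cd24a, fitted values of genes at 0). Cajal-Retzius markers such as Reln were lower for 5 of 8. The part of this cell mix in the results below was not tested.

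**Figure D1:**
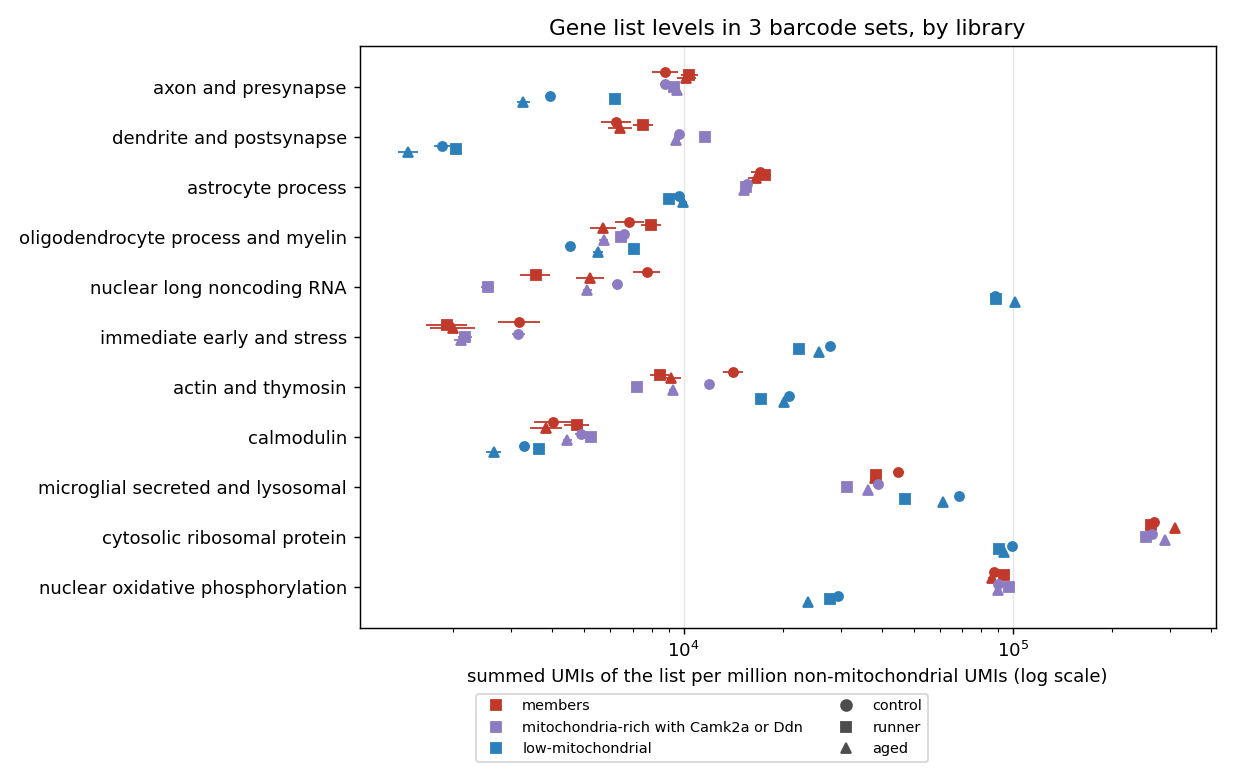
Level of each gene list (horizontal axis, summed CPM, log scale) in the selected barcodes ("members", red), the other mitochondria-rich barcodes (purple) and the low-mitochondrial barcodes (blue); symbols are the 3 libraries and bars are 95% counting intervals. Nuclear noncoding RNA stood at 7736, 3554 and 5203 in the selected barcodes of control, runner and aged and at 88017 to 101690 in the low-mitochondrial ones.

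Among axonal and presynaptic RNAs, Kif5a, the neuronal heavy chain of kinesin-1, the motor that carries mitochondria and vesicles along axons, had the highest log2 fold change of the genes named by rule. It stood at 3105, 3661 and 3676 CPM in control, runner and aged and at 124, 92.3 and 109 CPM in the low-mitochondrial barcodes, without overlap (log2 5.19 ± 0.22, adjusted p = 1.34e-112). Kif5c, a second neuronal kinesin-1 heavy chain, stood at 1422, 1865 and 1730 against 92.8, 109 and 79.8 CPM (log2 4.33 ± 0.22). After thinning to 200 UMIs, Kif5a was found in 44.7%, 50.2% and 50.2% of the selected barcodes and in 1.62%, 2.99% and 1.48% of the low-mitochondrial barcodes led by microglial markers, cells that should lack it. Kif5a lies on chromosome 10, 127225695 to 127266348, and Kif5c on chromosome 2, 49619286 to 49774778 (GRCm38.p6, RefSeq).

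Of 20 axon and presynapse genes tested, 10 were higher and 3 lower, with a median log2 fold change of 1.02 beside -0.82 for all genes. Cplx1, a complexin that clamps vesicle fusion, stood at 347, 332 and 334 CPM against 28.7, 26.5 and 22.5. Nefl, the light neurofilament subunit, stood at 260, 322 and 251 against 39.6, 36.3 and 34.7. Both sets of 3 values are narrow and far apart. Cplx2, Vamp2 and Gap43, all proteins of the presynapse or growth cone, were higher by 2.61, 1.78 and 1.4 on the log2 scale, while Stmn3 (0.78) and Sncb (0.88) passed with edgeR and not with DESeq2 or without the aged library (0.58 and 0.65). Stmn1, a tubulin-binding protein of young neurons, was lower (log2 -1.96 ± 0.24), as were Tuba1a (-0.96) and Basp1 (-0.74). Tuba1a did not pass without the runner library (-0.48), and Basp1 did not pass when any 1 library was left out (-0.48, -0.78 and -0.47 without control, runner and aged).

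Dendritic and postsynaptic RNAs were also higher than in the low-mitochondrial barcodes, even though the barcodes were chosen for lack of 2 of them. Of 14 genes tested, 9 were higher and 1 lower, with a median of 2.59. Shank1, a postsynaptic scaffold, stood at 624, 683 and 585 CPM against 99.6, 76.7 and 74.6 (log2 3.12 ± 0.24). Psd, an exchange factor for the small GTPase Arf6 at synapses, stood at 642, 644 and 740 against 75.0, 40.4 and 79.8 (log2 3.64 ± 0.24). Nrgn, or neurogranin, stood at 312, 459 and 227 against 135, 170 and 90.2 (log2 1.53 ± 0.26). The other scaffold and kinase-regulator genes Dlg4, Dlgap3, Ppp1r9b and Camk2n1 were higher by 3.42, 3.18, 2.97 and 3.1. Grin2b, an NMDA receptor subunit, was the 1 lower gene, at -2.23, and did not pass with DESeq2 or, at -1.49, without the runner library. Calm3, one of the calmodulin genes, was higher by 2.33, while Calm2 was lower (-0.72; -0.49 and not past the threshold without runner, -0.66 without aged).

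**Figure D2:**
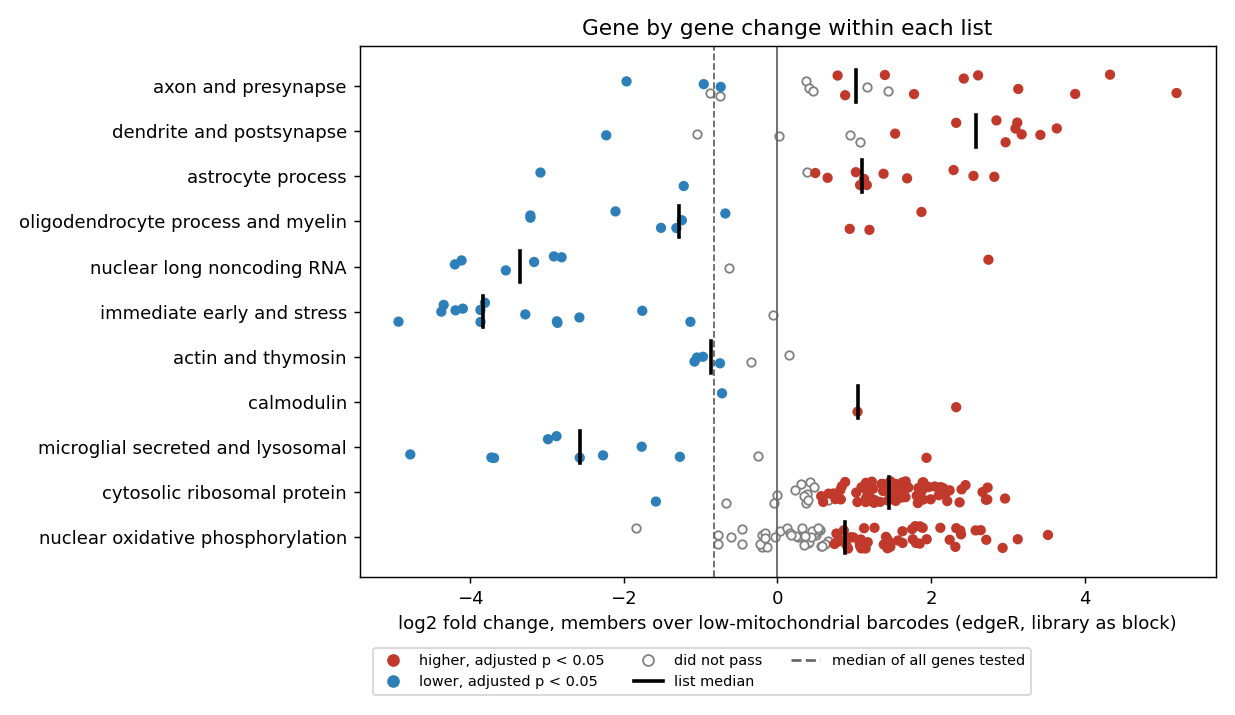
Log2 fold change (horizontal axis, selected barcodes over low-mitochondrial barcodes) of every tested gene of the 11 function lists; red and blue points passed the threshold, open points did not, black bars are list medians and the dashed line is the median of all genes. Genes with 0 UMIs in all selected barcodes have no point but count in the median; Rian stands alone at 2.75 among nuclear noncoding RNAs, of which the others that passed lie at the value of Snhg11 (-2.81) or lower.

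Further genes named by rule had no list in common. Rapgef4, an exchange factor for Rap activated by cyclic AMP, stood at 1006, 1084 and 943 CPM against 72.3, 29.4 and 38.1 (log2 4.73 ± 0.24). Nrsn1, or neurensin, a vesicle membrane protein of neurites, stood at 1249, 1660 and 1301 against 76.4, 71.5 and 78.0 (log2 4.42 ± 0.22). The selected barcodes of all 3 libraries lay above every low-mitochondrial value for both. Gng13, a G protein gamma subunit (log2 4.29), Hpcal4, a calcium sensor of the hippocalcin family (3.99), and Vps8, a subunit of an endosomal tethering complex (4.31), were higher too. AC161763.1, known only by its clone name, was higher by 4.38.

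Gm28438 and Gm10925, at 4.43 and 4.49, are annotated pseudogenes. The GENCODE transcript of Gm28438 matches mt-Nd3 at 99.7% over 345 bases and that of Gm10925 matches mt-Atp6 at 100% over 678 bases, and whether their reads came from mitochondrial RNA was not tested. The selected barcodes held 5, 39 and 20 UMIs of mt-Nd3 and 502, 693 and 733 of Gm28438. Reads from mitochondrial RNA would be raised by the rule that chose the barcodes, so the calls of these genes are a description only. They remain among the higher genes counted above. Genes with such a match, of at least 80% over at least 100 bases, took 10702, 9177 and 10454 CPM of the selected barcodes, over 9, 12 and 10 genes that the control, runner and aged tables list. Leaving them out changed no named direction.

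Astrocyte process RNAs were higher for 11 of 14 genes and lower for 2, with a median of 1.10. Slc1a2, the glutamate transporter GLT-1, stood at 4752, 5164 and 4881 CPM against 823, 690 and 851 (log2 2.82 ± 0.20, adjusted p = 1.33e-41). Gfap, the intermediate filament of astrocytes, stood at 520, 420 and 477 against 88.7, 83.6 and 98.8. Glul, glutamine synthetase, stood at 2983, 3153 and 3127 against 1463, 1557 and 1633, a smaller gap that also had no overlap. Kcnj10, a potassium channel, and Sparcl1 were higher by 2.29 and 1.69. Sparc, a secreted matrix protein that microglia also make, was lower (-1.22), as was the phagocytic receptor Mertk (-3.08). DESeq2 passed 6 of the 11, and not Aqp4 (1.02), which also did not pass without the control library.

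The genes of the oligodendrocyte process list differed in direction. Mbp, myelin basic protein, whose mRNA travels to the myelin sheath, stood at 4961, 5897 and 4165 CPM against 1422, 1753 and 1406 (log2 1.87 ± 0.20, adjusted p = 1.25e-19). The 3 selected values all lay above the 3 others. Mobp, whose mRNA is also transported, was higher (642, 732 and 501 CPM against 269, 445 and 390, log2 0.94 ± 0.21, adjusted p = 1.23e-04), and Tppp was higher by 1.2 but did not pass with DESeq2 or, at 1.04, without the control library. The other 7 of 10 genes of the oligodendrocyte process list were lower, among them Trf (-3.21), Pllp (-3.21) and Car2 (-1.51), and Cldn11, a tight junction protein on the marker list, was lower by 4.42 on the log2 scale. After thinning, Mbp was found in 50%, 55.9% and 51.7% of the selected barcodes and in 12.6%, 5.43% and 6.4% of the low-mitochondrial barcodes led by microglial markers.

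**Figure D3:**
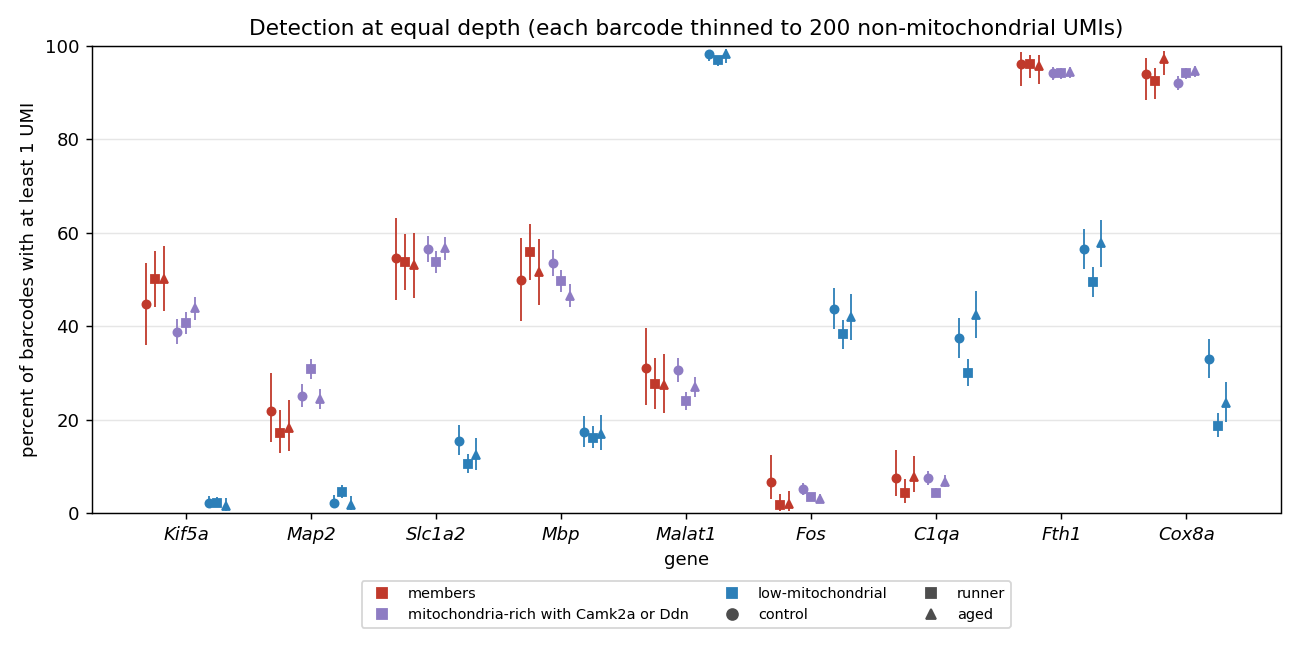
Percent of barcodes (vertical axis) with at least 1 UMI of each gene after thinning every barcode to 200 non-mitochondrial UMIs, in the 3 barcode sets and 3 libraries, with exact 95% intervals. Kif5a, Map2, Slc1a2, Mbp, Fth1 and Cox8a were found more often in the selected barcodes (red, "members") than in the low-mitochondrial ones (blue), and Malat1, Fos and C1qa less often.

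Nuclear RNA was low. Malat1 (chromosome 19, 5795690 to 5802672) stood at 7215, 3056 and 4559 CPM in the selected barcodes and at 85831, 86395 and 98604 in the low-mitochondrial ones (log2 -4.11 ± 0.28, adjusted p = 7.13e-46). Control held the highest of the 3 selected values, and all 3 lay far below the other set. At 200 UMIs, Malat1 was found in 31.1%, 27.6% and 27.5% of the selected barcodes against 98.2%, 96.9% and 98.2%. Of 10 nuclear noncoding RNAs tested, 7 were lower and 1 higher, with a median of -3.35 (-2.86 with the 2 genes at 0 set to their bounds). Meg3 (-4.20), Kcnq1ot1 (-3.53), Xist (-3.17), Neat1 (-2.91) and Snhg11 (-2.81) were lower, and Miat had 0 UMIs in the selected barcodes, at least 2.59-fold lower, a call that ended when any 1 library was left out.

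Rian, a maternally expressed noncoding RNA next to Meg3 on chromosome 12, was the exception. It stood at 225, 312 and 358 CPM against 55.9, 53.6 and 43.4 (log2 2.75 ± 0.29, adjusted p = 1.87e-19). Its level was higher in each library while that of Meg3, at 34.7, 48.8 and 0 CPM against 509, 632 and 642, was lower. Rian spans 109603945 to 109661716 and Meg3 109540996 to 109571729, and which of the transcripts in that interval gave the Rian UMIs cannot be told from gene counts.

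Immediate early and stress genes were lower for 15 of 16 and higher for none, with a median of -3.83 (-3.54 with Nr4a1, at 0 UMIs, set to its bound). Fos stood at 416, 107 and 95.5 CPM against 4546, 3645 and 4132 (log2 -4.34 ± 0.26), and Jun at 330, 176 and 263 against 5382, 3891 and 5100 (log2 -4.09 ± 0.25). Fosb (-4.93) and Junb (-3.81) were lower as well. The chaperones Hspa8 (-1.76) and Hsp90aa1 (-1.13) were lower by less, and Jund (-0.06) did not pass. In the low-mitochondrial set Fos was found, after thinning, in 66.8%, 65.8% and 64.0% of microglia-led barcodes and in 8.57%, 13.2% and 11.1% of astrocyte-led ones. The part of the cell mix in the lower Fos level was not tested.

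The 12 lower genes named by rule had 0 UMIs in the selected barcodes of all 3 libraries, so their place rests on fitted values of zeros and they are not shown to be the lowest. They were the immune genes Gna15, Pou2f2, Rel, Cd84 and Tbxas1, the ganglioside synthase St3gal5, the proteasome receptor Adrm1, the scaffold Akap9, the adhesion gene Opcml, and Gm21984, 4632427E13Rik and Gm42726. The lower bounds on the fold ran from 6.22 for Tbxas1 to 13.1 for Gm21984. Among the microglial secreted and lysosomal genes, 9 of 11 were lower, with Ctsd at -2.87 and Ctss at -2.57. Cst3, cystatin C, was lower (log2 -1.27, and -1.06 and not past the threshold without aged), at 18645, 11344 and 11957 CPM against 46582, 27896 and 38430. Fth1, ferritin heavy chain, was the 1 higher gene, at 20727, 22874 and 21588 against 6034, 5998 and 7064 (log2 1.94 ± 0.22).

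Ribosomal protein mRNAs made up 26.8%, 26.3% and 31.0% of the non-mitochondrial UMIs of the selected barcodes against 9.91%, 9.10% and 9.38%. Of 84 tested, 71 were higher and 1, Rpl7l1, lower in this fit and not when any 1 library was left out, with a median of 1.45. Rps21, of the small subunit, stood at 5325, 5438 and 6898 CPM against 936, 705 and 912 (log2 2.96 ± 0.21). Many ribosomal protein genes have near-identical processed copies, so single members are uncertain. Nuclear-encoded respiratory chain mRNAs made up 8.78%, 9.40% and 8.61% against 2.94%, 2.79% and 2.39%, with 48 of 86 higher and none lower at a median of 0.88. Cox8a, a cytochrome c oxidase subunit, stood at 13425, 14429 and 14690 CPM against 1669, 1214 and 1320 (log2 3.52 ± 0.22). Cox6a1, Cox6c and Ndufb9 were higher by 3.13, 2.93 and 2.72. Of 6 actin and thymosin genes 4 were lower, Actb by 0.97 on the log2 scale and Tmsb4x by 0.75, and neither passed when the runner library (-0.49 and -0.48) or the aged library (-0.74 and -0.55) was left out.

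The comparison was repeated among astrocyte-marker barcodes. They had at least 2 of the 8 astrocyte markers and more than of any other of 8 lineages, and there were 56, 99 and 76 among the selected barcodes and 70, 136 and 54 among the low-mitochondrial ones, with median depths of 435.5, 354 and 432 against 1223, 1318.5 and 1159 UMIs. Of 2414 genes tested, 792 (32.8%) differed, with 385 (15.9%) higher and 407 (16.9%) lower in the selected barcodes. DESeq2 gave 267 higher and 118 lower, and scaling to total UMIs gave 341 and 584.

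RNAs of neurons and oligodendrocytes were present in these selected barcodes as well, so the astrocyte markers did not limit them to 1 lineage. Kif5a stood at 3164, 3206 and 3132 CPM in the selected astrocyte-marker barcodes and at 142, 86.3 and 213 in the low-mitochondrial ones (log2 4.76 ± 0.27), and Kif5c at 1235, 1501 and 1827 against 54.7, 55.8 and 26.6 (log2 5.12 ± 0.33). Mbp stood at 4360, 4910 and 3857 against 492, 370 and 280 (log2 3.75 ± 0.24). Kif5a and Mbp, genes of neurons and oligodendrocytes, thus stood in these barcodes near their levels in all selected barcodes. Axon genes were higher for 7 of 10 and lower for none, and dendrite genes higher for 9 of 10 with Grin2b lower. Gng13, Rapgef4, Nrsn1 and Hpcal4 were higher by 4.83, 4.64, 4.55 and 4.33, and of the oligodendrocyte process list Mbp, Mobp and Qdpr were higher and none lower.

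The astrocyte's own RNAs differed in direction. Slc1a2 stood at 5479, 6920 and 6525 CPM against 4541, 4374 and 5127 (log2 0.64 ± 0.21, adjusted p = 0.0103), and Glul at 3125, 4121 and 4292 against 2287, 2410 and 2597 (log2 0.87 ± 0.21, adjusted p = 3.27e-04). Slc1a3, the second glutamate transporter of astrocytes, stood at 965, 941 and 1479 against 3578, 3567 and 3981 (log2 -1.51 ± 0.24, adjusted p = 2.63e-09). Apoe, the lipid carrier, stood at 5672, 7607 and 5945 against 22791, 23520 and 20240 (log2 -1.58 ± 0.23). Gja1, the gap junction protein connexin 43, and Aqp4, the water channel of the end feet, were lower by 1.64 and 1.65 on the log2 scale. Over the whole astrocyte process list 3 of 14 were higher and 6 lower. The third higher gene, Sparc (0.73), did not pass with DESeq2 or without control or aged (0.53 and 0.50), and stood at -0.59 from 50% mitochondrial UMIs. Without a filter on low counts Slc1a2 (0.18) and Glul (0.40) did not pass, and in barcodes from 50% mitochondrial UMIs they stood at -0.76 and -0.22.

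Nuclear RNA was low in astrocyte-marker barcodes as well. Malat1 stood at 9453, 4656 and 4959 CPM against 155698, 143283 and 184612 (log2 -4.52 ± 0.31), and all 4 nuclear noncoding RNAs tested were lower, Xist, Neat1 and Kcnq1ot1 being the others (Kcnq1ot1 at -2.95, not past the threshold, without control). Tlr3 had 0 UMIs (at least 5.03-fold lower), and Mir99ahg, a host gene of microRNAs, the RNA-binding protein Rbm25, and the transcriptional regulator Id3 were lower by 3.83, 4.10 and 4.07 on the log2 scale. Of 12 immediate early and stress genes 6 were lower, among them Fos and Jun, and 2 with DESeq2. Ribosomal protein mRNAs were higher for 78 of 80, with a median of 2.11, and Fth1 stood at 19640, 17961 and 20589 against 3107, 2568 and 3063. Actin and thymosin genes, most of them lower over all barcodes, were higher for 3 of 6 here, Tmsb4x by 1.70, Tmsb10 by 2.25 and Actb by 0.53. Over all barcodes, Tmsb10 lay above the low-mitochondrial level in control and aged and below it in runner. Actb did not pass here with DESeq2 or without control (0.41), and stood at -0.63 from 50% mitochondrial UMIs. Blood RNA moved along: Hbb-bs, a haemoglobin chain, stood at 1235, 611 and 145 CPM against 230, 173 and 79.9, and its part in the other results was not tested.

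Barcodes led by neuron, oligodendrocyte or microglial markers were too few for such a reading. Among the selected barcodes of control, runner and aged, 2, 6 and 5 were led by neuron markers, 3, 4 and 4 by oligodendrocyte markers and 13, 13 and 19 by microglial markers. The calls turned with the scaling: for microglial markers 407 of 4912 genes (8.29%) differed, 58 (1.18%) higher and 349 (7.11%) lower, against 157 and 80 with total UMIs. For neuron markers 55 of 1571 (3.5%) differed, 9 (0.573%) higher and 46 (2.93%) lower, against 69 and 11. For oligodendrocyte markers 181 of 2126 (8.51%) differed, 7 (0.329%) higher and 174 (8.18%) lower, against 51 and 6. No gene is named from these 3.

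The selected barcodes resembled the other mitochondria-rich barcodes far more than the low-mitochondrial ones. In this comparison, added after the values were seen, 86 of 6152 genes (1.4%) differed, 4 (0.065%) higher and 82 (1.33%) lower in the selected barcodes, and without the library block 0 and 9. Because the sets were split on Camk2a and Ddn, genes that vary with these 2 are not independent of the split. Psd stood at 642, 644 and 740 CPM in the selected barcodes and at 1353, 1711 and 1556 in the others (log2 -1.27 ± 0.13), and Ppp1r9b at 416, 566 and 704 against 1124, 1224 and 1249 (log2 -1.13 ± 0.14). Dlg4, Shank1, Map2 and Camk2n1 were lower by 0.90, 0.90, 0.71 and 0.69 on the log2 scale, which makes 6 of 15 dendrite genes lower and none higher.

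Few axonal, glial process and nuclear genes passed between the 2 mitochondria-rich sets, although some list sums differed beyond counting error. The nuclear noncoding list stood at 7736 and 3554 CPM in the selected control and runner barcodes against 6281 and 2542 in the others. Myelin RNA stood at 6851 and 7966 CPM against 6585 and 6444, with intervals that overlapped in control and not in runner. Astrocyte process RNA stood at 17050 and 17612 CPM against 15540.5 and 15506, without overlap of intervals in either library. Axonal RNA was at 8794 and 10407 against 8753 and 9322, apart only in runner. The microglial secreted and lysosomal list stood at 44836 and 38357.5 against 38808 and 31263, also without overlap. These list sums are given for control and runner only. Kif5c was higher in the selected barcodes, at 1422, 1865 and 1730 CPM against 964, 1078 and 1028 (log2 0.66 ± 0.11, adjusted p = 1.15e-06), and Cplx2 was lower (-0.64). They were the only 2 of 22 axon genes to pass. Trak2, an adaptor between mitochondria and kinesin, was higher by 0.80 (330, 996 and 322 CPM against 239, 476 and 204), and Tbc1d9b by 0.79. The fourth higher gene, the choroid plexus gene Ttr, had 2, 26 and 0 UMIs. Without the library block none of these 4 passed, and Trak2 did not pass without the runner library (0.56). None of the astrocyte process, myelin, nuclear noncoding or ribosomal genes passed, with medians of 0.18, -0.16, 0.21 and 0.01. Genes far below in the selected set were thinly counted, as Opcml with 0 UMIs and Kcnh3 with 1 UMI in the aged library alone. Hba-a1, a haemoglobin chain, stood at 503, 185 and 227 CPM against 1665, 159 and 291, and its call ended without the control library (-0.09).

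Across all barcodes with 0 UMIs of Camk2a and Ddn, levels were compared by mitochondrial share. Nuclear noncoding RNA took 87092 CPM in control barcodes under 10% mitochondrial UMIs, 69630 from 10% to 30%, 11806 from 30% to 40%, 5489 from 40% to 50% and 1363 above. In runner it went from 88625 to 2028 over these bins and in aged from 104680 to 2299. Dendrite RNAs stood at 1273, 3093, 5827, 6153 and 7608 CPM over the same bins in control, although none of these barcodes had Camk2a or Ddn. Axon RNAs in control stood at 3577, 4639, 7502, 9606 and 10561. Astrocyte process RNAs had their highest values in the 30% to 40% bin in runner (23992) and aged (21770) and in the 40% to 50% bin in control (18414), and lower ones above 50%. The bin above 50% held 26, 124 and 90 barcodes of control, runner and aged.

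**Figure D4:**
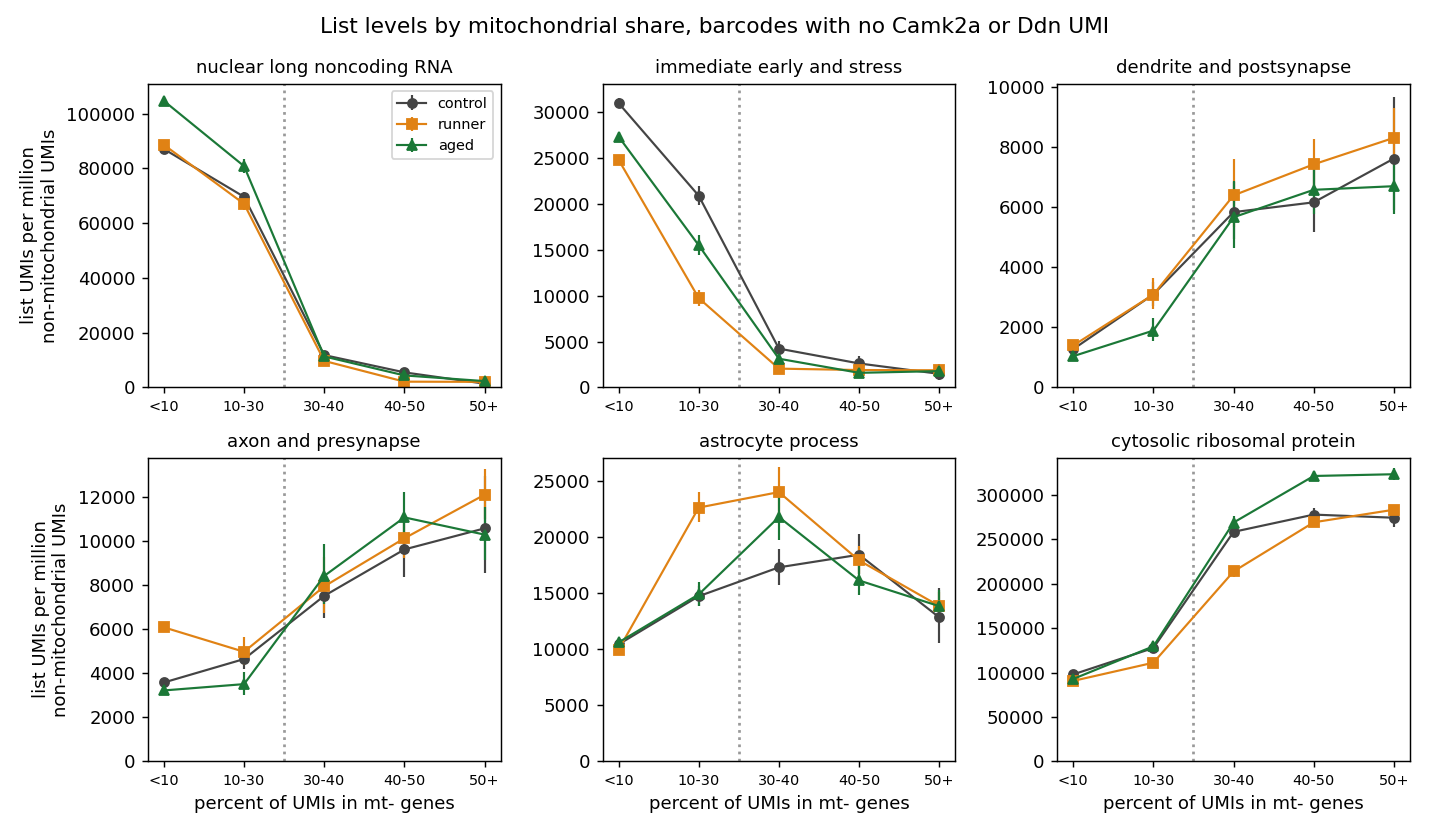
Level of 6 gene lists (vertical axes, list CPM) by the percent of UMIs in mt- genes (horizontal axes) in barcodes with no Camk2a or Ddn UMI; lines are the 3 libraries, bars are 95% counting intervals and the dotted line marks the 30% limit. Ribosomal protein RNA in control stood at 97868, 127531, 258131, 277544 and 274018 over the 5 bins.

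Within the mitochondrial RNA, mt-Rnr2, the large ribosomal RNA, took 15.6%, 16.7% and 21.2% of mitochondrial UMIs in the selected barcodes against 16.1%, 15.05% and 18.4% in the low-mitochondrial ones. mt-Nd1, a complex I subunit, took 27.9%, 22.8% and 22.3% against 22.6%, 20.3% and 20%. mt-Atp8, a small subunit of ATP synthase, took 1.81%, 1.07% and 1.87% against 3.87%, 2.77% and 3.34%. The other mitochondria-rich barcodes lay near the selected ones for mt-Atp8, at 1.85%, 1.08% and 1.93%. There mt-Nd1 took 25.8%, 21.2% and 21.9%, and mt-Rnr2 15.8%, 17.0% and 20.1%. These shares belong to the genes that chose the barcodes and are given without a test.

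Between libraries the selected barcodes differed in few genes, and no test was possible. Runner and aged were each set against control. With 1 library per group, running or age cannot be told apart from other differences between the libraries. Of 403 genes with at least 50 UMIs in the selected runner and control barcodes, 34 (8.44%) were past 2-fold, 28 (6.95%) higher and 6 (1.49%) lower in runner. Of 325 genes in aged and control, 12 (3.69%) were past 2-fold, 10 (3.08%) higher and 2 (0.615%) lower in aged. The control library serves both comparisons, and a control value that is off moves both alike.

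Actb stood at 1611 CPM in runner and 6071 in control, a ratio of 0.265 (0.219 to 0.320), and at 3007 in aged, a ratio of 0.495 (0.420 to 0.584). In the other mitochondria-rich barcodes the Actb ratios were 0.236 and 0.655, and in the low-mitochondrial barcodes 0.571 and 0.973. Malat1 stood at 3056 in runner, a ratio of 0.424 (0.365 to 0.492), and at 4559 in aged, 0.632 (0.548 to 0.728), where the ratios were 0.353 and 0.789 in the other mitochondria-rich barcodes and 1.01 and 1.15 in the low-mitochondrial ones. The Malat1 order reversed from 50% mitochondrial UMIs, with ratios of 1.32 and 1.66. Cst3 and the metallothionein Mt2 were lower in both (ratios of 0.608 and 0.492 in runner, 0.641 and 0.527 in aged), but from 50% mitochondrial UMIs Cst3 was at 1.05 and 1.09. Ubb, a ubiquitin gene, was at 0.402 and 0.504, and Pantr1, a noncoding RNA, at 0.289 in runner. H3f3b, Dbi and Pcsk1n were at 0.533, 0.581 and 0.576 in aged, and Gm10076 at 0.568 in runner, while H3f3b in aged was at 1.53 from 50% mitochondrial UMIs.

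Vps8 was among the higher genes in both comparisons. It stood at 1231 CPM in control, 3378 in runner (ratio 2.74, 2.12 to 3.59) and 2494 in aged (2.03, 1.54 to 2.69), with ratios of 2.72 and 1.95 in the other mitochondria-rich barcodes and 0.960 and 1.19 in the low-mitochondrial ones. Rps2 was at 2.37 and 2.07, and Wdr89, a WD-repeat gene, at 4.07 (2.27 to 7.93) and 3.28 (1.79 to 6.51). The other higher genes named by rule were copies of ribosomal protein genes and predicted genes that may share reads with other genes, and are uncertain. They were Rps2-ps10 (6.86 in runner, 3.57 in aged), Rps27rt (5.01 and 3.91), Rps23-ps1 (3.59 and 3.23), Gm14303 (4.77 and 4.91), Gm11808 (3.52 in runner) and Rpl37rt (2.13 in aged). Rps2-ps10, Rps27rt, Gm14303 and Wdr89 were also higher than in control in the low-mitochondrial barcodes of both libraries, at ratios from 1.67 to 3.27.

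By list, axonal RNA in the selected barcodes was 1.18 times the control level in runner (1.06 to 1.32) and 1.16 times in aged (1.04 to 1.30), where the low-mitochondrial ratios were 1.57 and 0.830. Dendritic RNA was at 1.21 (1.07 to 1.38) and 1.03 (0.899 to 1.18). Astrocyte process RNA was at 1.03 and 0.973, with both intervals including 1. Myelin RNA was at 1.16 (1.03 to 1.31) in runner and 0.831 (0.726 to 0.952) in aged. Nuclear noncoding RNA was at 0.459 and 0.673. Its order reversed in the selected barcodes from 50% mitochondrial UMIs, where control stood below runner and aged. From that limit there were 26 control, 124 runner and 90 aged selected barcodes. The part of the mitochondrial share in these ratios was not tested. Immediate early and stress RNA was at 0.603 and 0.628, and actin and thymosin RNA at 0.6 and 0.647. Ribosomal protein RNA was at 0.982 and 1.16.

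**Figure D5:**
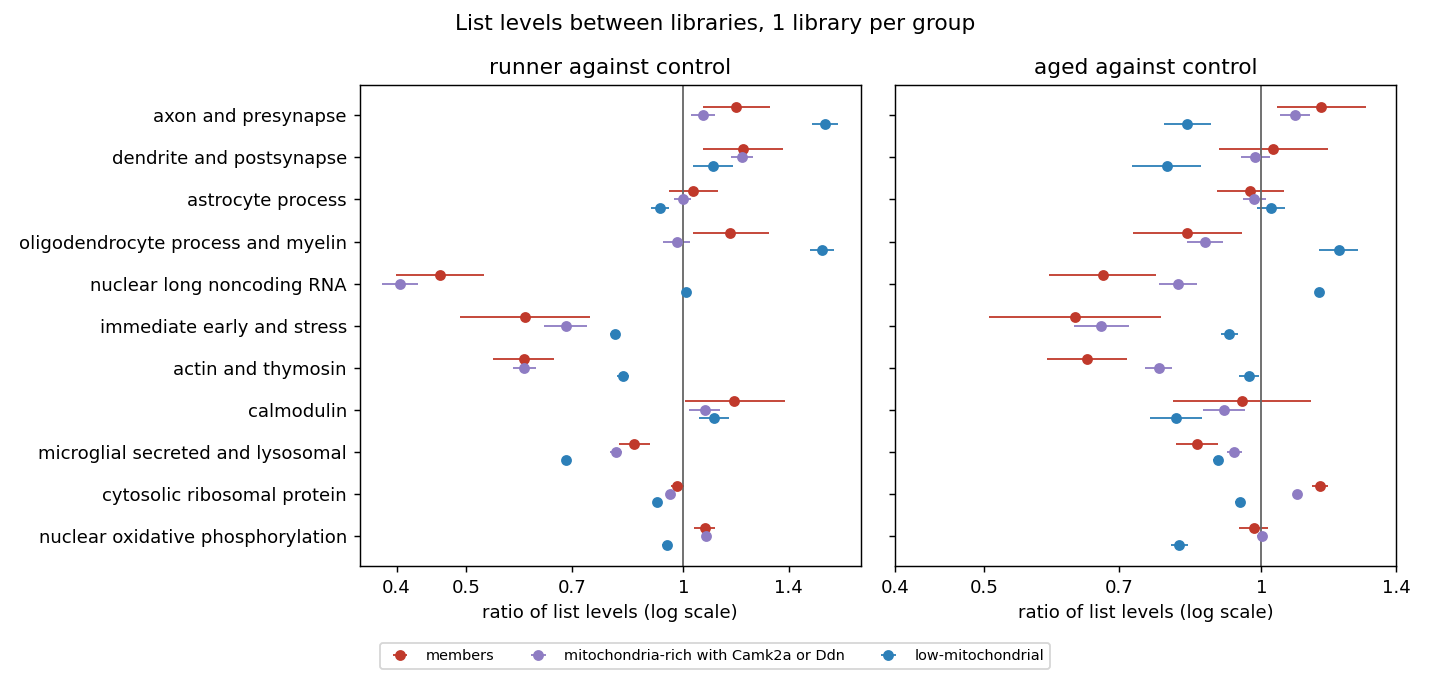
Ratio of list levels (horizontal axes, log scale) in runner over control (left) and aged over control (right), in the selected barcodes ("members", red), the other mitochondria-rich barcodes (purple) and the low-mitochondrial barcodes (blue), with 95% counting intervals; 1 library stands behind each group. The nuclear noncoding list lies at 0.459 and 0.673 in the selected barcodes. It lies at 0.405 and 0.812 in the other mitochondria-rich ones and at 1.01 and 1.16 in the low-mitochondrial ones. In the selected barcodes from 50% mitochondrial UMIs, not drawn here, control had a lower level of this list than runner and aged.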

How the data were processed

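Droplet single-cell 3' RNA-seq (10x Chromium, version 2 chemistry) gave the authors' deposited UMI count tables, 1 per library, of genes by cell barcodes. The tools were Cell Ranger 2.1.1 and Seurat 3.1.0 with the build GRCm38, per the submitters' processing notes. The annotation and the way cells were called: not given in the sources used here. Each gene in the tables was seen in at least 3 barcodes.

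Members and gene lists were chosen with earlier results of these data known, and the comparison with the other mitochondria-rich barcodes and the exclusion of mitochondrial pseudogenes were added after seeing the data. Counts of non-mitochondrial genes were summed per library and barcode set. Genes with at least 30 UMIs were tested with edgeR 4.0.16 (quasi-likelihood, TMM scaling, library as block, Benjamini-Hochberg adjustment, threshold 0.05), and DESeq2 1.42.0 was an alternative. The block pairs sets that come from the same library. P-values weigh the fold change against counting error and a spread over the 3 libraries that was estimated partly from all genes together. They are not the spread of 1 gene's own 3 values. The SE was worked out from the log2 fold change and the F statistic of the test. Named genes were the 12 highest and 12 lowest by fold change (6 and 6 among astrocyte-marker barcodes) that passed the threshold with the same direction in all 3 libraries. They also needed at least 30 UMIs (15 among astrocyte-marker barcodes) in every library, in the set where they were higher. Lower genes thus met this count through the low-mitochondrial barcodes alone. For ratios between libraries, the 8 farthest from 1 in each direction by the nearer interval bound were named. Genes of the lists were named with their list, and some genes that the rule names are not reported here. Shares have exact (Clopper-Pearson) 95% intervals and ratios of CPM have exact conditional binomial ones. The scripts were tested on simulated data.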

Additional observations from a re-analysis of the deposited data

Results flagged for a closer look

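Some levels of the selected barcodes lay above those of the low-mitochondrial barcodes in 1 library and below them in another. The difference between libraries was not tested, and each value below is the level in the selected barcodes divided by that in the low-mitochondrial ones. Haemoglobin RNA was the broadest case: the erythroid list was at 3.11 in control, 0.392 in runner and 0.294 in aged. Its level in the selected barcodes was 1717, 1357 and 979 CPM, and that in the low-mitochondrial barcodes, which varied more, was 551, 3465 and 3328. Its members Hbb-bs (6.43, 0.393 and 0.248), Hba-a1 (4.14, 0.247 and 0.290) and Hba-a2 (8.74, 0.176 and 0.218) were likewise above 1 in control and below 1 in runner and aged. The endothelial list was at 0 in control, 4.43 in runner and 0.0492 in aged, with Cldn5 at 0, 5.64 and 0 and Itm2a at 0, 7.25 and 0. These endothelial values rest on 0, 17 and 1 UMIs in the selected barcodes, and 1 of 287 in runner had at least 2 endothelial markers. Calb2, a calcium-binding protein of interneurons and young granule cells, was at 2.35, 0.235 and 3.44. Tmsb10, a thymosin, was at 1.16, 0.651 and 1.35.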

How the results depend on the processing

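The number of genes that differed between the selected and low-mitochondrial barcodes was 2522, and 1577 with DESeq2, 1141 for selected barcodes from 50% mitochondrial UMIs and 1307 to 1789 when 1 library was left out. Against the other mitochondria-rich barcodes it was 86, and 39 with DESeq2, 225 without a filter on low counts, 23 from 50% and 16 to 56 without 1 library. Fitting without the library block, which undoes the pairing of sets by library, gave 9 there, 195 for neuron-marker, 435 for oligodendrocyte-marker and 895 for microglia-marker barcodes. Among astrocyte-marker barcodes 792 became 385 with DESeq2, 410 with at least 100 UMIs, 250 from 50% and 413 to 536 without 1 library. For neuron markers 55 became 136 with at least 100 UMIs, 29 with comparison barcodes free of Camk2a and Ddn, 24 without the top 1% of barcodes and 4 to 62 without 1 library. For oligodendrocyte markers 181 became 57 with total UMIs, 103 with at least 100 UMIs and 15 to 98 without 1 library; for microglial markers 407 became 237, 248 and 130 to 209. Genes past 2-fold in runner numbered 112 with at least 20 UMIs, 15 with at least 100, 16 from 50% and 70 at 1.5-fold, and in aged 85 with at least 20 UMIs and 46 at 1.5-fold. The selected share from 40% and 50% was 3.44% and 1.10% in control, 7.36% and 3.73% in runner, and 7.15% and 3.72% in aged. Without thinning, barcodes with 2 astrocyte markers were 47.0%, 38.7% and 42.0%, with 2 microglial markers 12.1% in control and 6.27% in runner, and with 2 neuron markers 5.92% in runner. With thinning to 100 UMIs astrocyte shares were 6.06%, 10.8% and 5.80%, neuron shares 0% in control and aged, oligodendrocyte shares 0.348% in runner and 0% in aged, and the microglial share in aged 4.35%. From 50% mitochondrial UMIs the direction reversed among astrocyte-marker barcodes for Slc1a2 (-0.76), Glul (-0.22), Sparc (-0.59) and Actb (-0.63), and between libraries for Malat1 (1.32 in runner, 1.66 in aged), Cst3 (1.05 and 1.09) and H3f3b (1.53 in aged). The order of the nuclear noncoding list between libraries reversed from that limit as well. The cause was not tested beyond the smaller number of barcodes or genes that a setting leaves. The 50% limit was not run for neuron, oligodendrocyte and microglial markers.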
